A study of Saccharomyces cerevisiae with 22 samples.

Results

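Sharp start clusters were the 491 gene-assigned clusters of 5′ ends that spanned at most 12 bp in the wild-type comparison table, of 5195 clusters in all and 4485 that the authors assigned to a gene. Members were chosen by the width of the cluster, which came from the authors' clustering of the reads, so width describes them and is not a result. The clusters stood in 451 entries of the authors' gene column, and 265 of them were their gene's only cluster. The median width of the sharp clusters was 7 bp, against 47.5 bp for the 3994 broader gene-assigned clusters. At the limit, the 49 clusters of 12 bp had a median mean normalized count of 72.6 and the 44 clusters of 13 bp one of 138.5.

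The data were TL-seq libraries of Saccharomyces cerevisiae, strain background W303, in which the cap of polyadenylated RNA is removed with Cap-Clip and the 5′ end is sequenced. Of 22 libraries, 20 fell into 10 groups of 2 replicates collected on separate days, and 2 SWI3 libraries made without Cap-Clip entered no comparison. The mutants were swi3E815X (swi3 deleted, swi3-E815X at LEU2) and snf2W935R and snf2Q928K (snf2 deleted, snf2-W935R or snf2-Q928K at LEU2). The wild types, SWI3 and SNF2, also lacked the native gene and carried the intact copy at LEU2. Every strain grew in YPD and was given 5 mM dithiothreitol (DTT) for 1 h or left untreated. The series is about how the Swi/Snf chromatin remodelling complex acts on transcription interference, and the wild-type comparison gives the response to DTT against which the mutants stand.

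In yeast, RNA polymerase II scans downstream from the promoter before it initiates, so most promoters use a stretch of start sites, and initiation favours a purine that follows a pyrimidine. The TATA element binds the TATA-binding protein and is typical of highly regulated promoters. Swi/Snf uses ATP to move or evict nucleosomes, with Snf2 as its ATPase and Swi3 as a core subunit, and PHO5 is a textbook promoter at which nucleosomes are cleared. DTT reduces disulphide bonds and so unfolds proteins in the endoplasmic reticulum (ER).

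Most sharp clusters were ordinary promoter start sites, and a smaller set lay deep inside genes. Of the 491, 307 (62.5%) had their midpoint upstream of the coding start of their gene, at a median of 57 bp, and 160 (32.6%) lay inside a coding region, a median of 423.75 bp past its start. Broader clusters weighted to the same mean counts were upstream in 73.6% and inside in 22.9%. A further 12 sharp clusters were assigned to several genes and 12 to genes with no coding region in the reference. The sequences of promoters that the results return to are shown first, from 120 bases before the cluster to its last base in build R64 (sacCer3). Capitals at the 3′ end mark the cluster, and capitals before it mark matches to TATAAA or TATATA.
FBA1, chrXI:327503-327634, minus strand: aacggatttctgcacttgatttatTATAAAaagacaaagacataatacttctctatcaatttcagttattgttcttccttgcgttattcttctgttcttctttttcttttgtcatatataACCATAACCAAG
RPS6A, chrXVI:378421-378544, minus strand: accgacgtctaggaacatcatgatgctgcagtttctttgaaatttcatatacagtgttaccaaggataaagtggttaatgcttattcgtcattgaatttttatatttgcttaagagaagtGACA
MET17, chrXII:732378-732503, plus strand: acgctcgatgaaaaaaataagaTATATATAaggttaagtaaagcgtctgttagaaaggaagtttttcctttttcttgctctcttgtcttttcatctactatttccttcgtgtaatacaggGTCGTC
PHO5, chrII:430983-431112, minus strand: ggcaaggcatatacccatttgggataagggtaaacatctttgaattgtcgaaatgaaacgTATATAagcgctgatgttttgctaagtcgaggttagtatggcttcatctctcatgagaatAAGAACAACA
YRO2, chrII:342659-342787, plus strand: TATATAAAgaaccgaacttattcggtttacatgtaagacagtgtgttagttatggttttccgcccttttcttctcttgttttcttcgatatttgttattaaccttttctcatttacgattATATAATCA
FRE4, chrXIV:739807-739931, plus strand: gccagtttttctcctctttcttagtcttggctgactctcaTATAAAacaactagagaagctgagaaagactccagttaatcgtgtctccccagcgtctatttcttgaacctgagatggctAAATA
YGP1, chrXIV:336370-336495, plus strand: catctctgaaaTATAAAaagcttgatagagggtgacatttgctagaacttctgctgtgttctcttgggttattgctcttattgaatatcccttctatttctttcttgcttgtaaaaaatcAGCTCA
YCR051W, chrIII:213857-213983, plus strand: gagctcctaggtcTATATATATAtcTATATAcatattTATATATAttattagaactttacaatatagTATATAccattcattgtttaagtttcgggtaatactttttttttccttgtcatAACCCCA

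The deposited positions sat 1 bp higher in genome coordinates than the initiation step on both strands, and the sequences above are drawn 1 bp lower than deposited. A pyrimidine followed by a purine ended on the shifted 5′ base in 269 of 307 upstream sharp clusters (87.6%), against 2.93% at the base as deposited. On the plus strand the shares were 89.7% at the base 1 bp lower and 4.02% at the deposited base. On the minus strand the share was 85.0% at the base 1 bp lower, and 2 of 133 clusters had the step at the deposited base. Broader upstream clusters had the step in 83.6%. Cluster coordinates in the text are those deposited, and all sequence features use the shifted base.

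**Figure D1:**
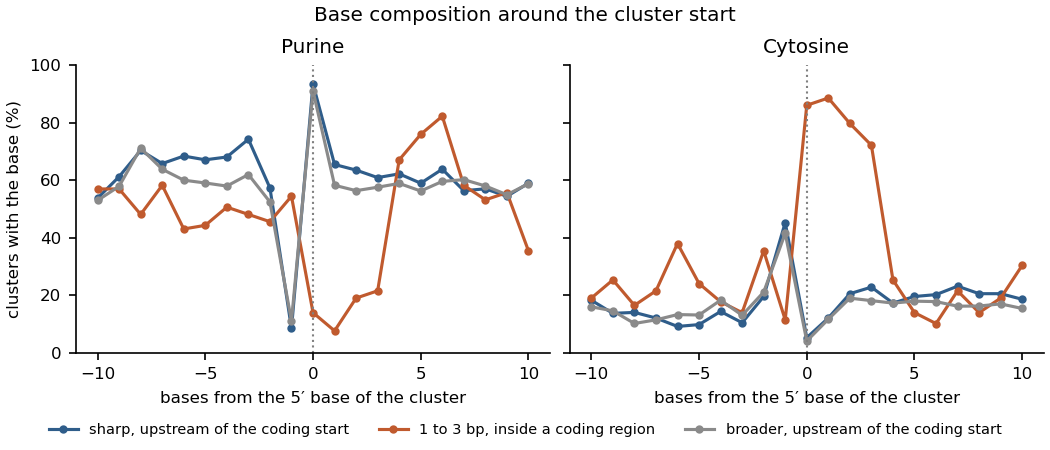
Percent of clusters with a purine (left) or a cytosine (right) at each base from 10 before to 10 after the cluster's 5′ base, on the sense strand and with deposited positions moved 1 bp lower. Sharp and broader upstream clusters share a pyrimidine-to-purine step at the start, whereas clusters of 1 to 3 bp inside coding regions have cytosine there in 86.1%.

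The narrowest clusters inside coding regions began at a run of cytosines, not at a pyrimidine-purine step. Of 102 clusters of 1 to 3 bp, 79 lay inside a coding region, and among the 63 clusters of 2 bp this was 56 (88.9%). Letters CCC on the sense strand, within 6 bases from 1 before the 5′ base to 4 after it, were found in 62 of the 79 (78.5%). The same window held CCC in 12 of 81 coding-region clusters of 4 to 12 bp (14.8%), 15.0% of broader clusters inside coding regions, 11 upstream sharp clusters (3.58%), 1.20% of broader upstream clusters and 4.91% of all clusters. Over all windows of 6 bases on the sense strand of coding exons in R64, 2.34% held CCC. In 46 of the 79 (58.2%) the longer word CCCCA lay in the 7 bases from 1 before the start, against 7.41% of the coding-region clusters of 4 to 12 bp. The pyrimidine-purine step was present in 10.1% of the 79 and in 72.8% of those of 4 to 12 bp. Why these clusters share the run was not tested, and the libraries made without Cap-Clip were not analysed here. The 6 clusters of this kind inside coding regions with the most counts are printed as examples, in 30 bases of sense strand with the cluster in capitals. They were picked among clusters with the run, so the cytosines they share follow from that choice. All 6 show CCCCA, which 46 of the 79 (58.2%) held. The 6 were chosen after their values were seen.
ASC1, chrXIII:499785-499814, minus strand: ctttgactgcttCCccagacggaactttga
RPS22A, chrX:75059-75088, minus strand: gtggtgttatttCCccaagattcaacgtta
CIS3, chrX:122831-122860, minus strand: ggtccaccttaaCCccaaccggctccatct
EDE1, chrII:130959-130988, minus strand: accggatgttatCCccaatgaattattaca
SSA2, chrXII:97131-97160, minus strand: ccaagaactttaCCccagaacaaatctcct
HHT2, chrXIV:575987-576016, minus strand: ctggtggtaaagCCccaagaaaacaattag

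**Figure D2:**
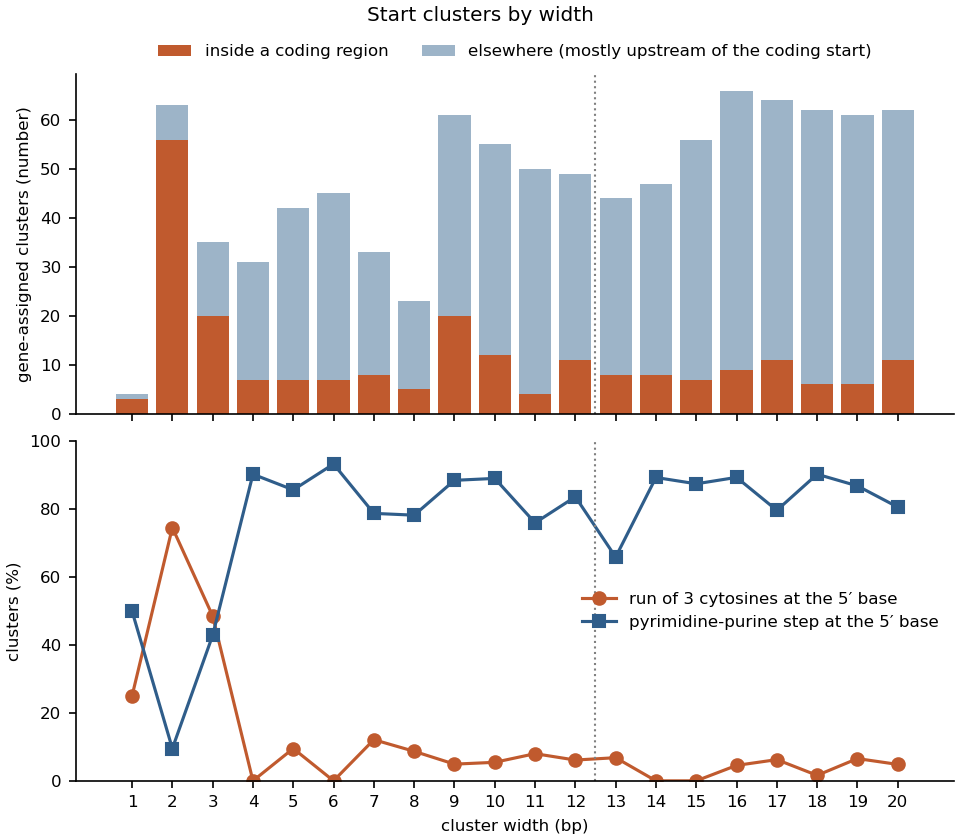
Number of gene-assigned clusters by width, split by position (top), and percent of clusters with a run of 3 cytosines or a pyrimidine-purine step at the 5′ base (bottom), with the 12 bp limit dotted. At 2 bp, 56 of 63 clusters are inside coding regions and 74.6% hold the run.

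Sharp clusters were mostly weak, with a few of the strongest start sites of the cell among them. In the authors' deposited table for wild type their mean normalized counts ran from 2.69 to 274876, with a median of 51.5 and quartiles of 25.5 and 148.5. The broader clusters had a median of 206.9 in the authors' deposited table. A count under 50 was found for 243 sharp clusters, one of at least 1000 for 57, and together they held 12.7% of all mean counts. The strongest belonged to FBA1, fructose-bisphosphate aldolase of glycolysis (274876 in the authors' deposited table), and to the cytoplasmic peptidyl-prolyl isomerase CPR1, shared with YDR154C (129169). They were followed in the authors' deposited table by the ribosomal protein gene RPS6A (127141), MET17 of sulfur amino acid synthesis (23447), MEO1 with YBR126W-B (20230) and the ribosomal stalk gene RPP2B (14339). Upstream sharp clusters had a median count of 78.3 and those inside coding regions one of 34.0.

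DTT changed sharp clusters in both directions in wild-type cells. Of 489 sharp clusters with a test, 142 (29.0%, exact 95% interval 25.05 to 33.3) passed an adjusted p under 0.05 in the authors' deposited table, against 33.8% of all clusters. Broader clusters of similar mean count were called in 25.1%. Higher with DTT were 69 sharp clusters and lower were 73, where 16.5% of all clusters were higher and 17.3% lower. The median log2 fold change of the sharp clusters was -0.01, and that of all clusters 0.01.

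The clusters described here as strongest are those with a mean normalized count of at least 50, so that weaker clusters with larger changes stand outside the order. Upstream, the strongest increases by that rule were at YCR051W, TDH1, ROQ1 and TSA2. YCR051W, at chrIII:213978-213984, had 100.9 normalized counts with DTT and 2.02 untreated, or 5.64 ± 0.87 (SE) as a log2 ratio in the authors' deposited table (adjusted p = 2.05e-09, DESeq2). TDH1, a glyceraldehyde-3-phosphate dehydrogenase, stood at 192.6 with DTT and 17.1 untreated in the authors' deposited table (log2 fold change 3.49 ± 0.58). ROQ1, a stress-induced regulator of the ubiquitin ligase Ubr1, had 266.0 with DTT and 27.2 untreated in the authors' deposited table (log2 fold change 3.29 ± 0.40). TSA2, a peroxiredoxin, had 241.6 with DTT and 25.7 untreated in the authors' deposited table (log2 fold change 3.23 ± 0.46). All 4 were close to or under the lower quartile of the sharp clusters in untreated cells, and met the limit of 50 through their DTT arm. Low untreated counts follow from choosing large increases and are not a result. Of the 4, YCR051W alone holds CCC within the window described above. Inside coding regions, under the same limit of 50, the strongest were BPL1, biotin-protein ligase, at 5.48 ± 0.87 log2 units in the authors' deposited table, and EMP46, an ER cargo receptor, at 4.59 ± 0.64. The cell-surface protease gene YPS1 (3.03 ± 0.89, at a cluster with the cytosine run) and TIP41 of the TOR pathway (2.89 ± 0.95) followed in the authors' deposited table. These inside clusters also met the limit of 50 through their DTT arm.

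Under the same limit of 50, the strongest decreases were at 8 clusters, each upstream of its coding start. PHO5, the secreted acid phosphatase, had 5.78 normalized counts with DTT and 214.2 untreated at chrII:430984-430993, or -5.21 ± 0.66 as a log2 ratio in the authors' deposited table (adjusted p = 1.19e-13, DESeq2). THI7, the thiamine transporter, had 9.49 with DTT and 340.4 untreated in the authors' deposited table (log2 fold change -5.16 ± 0.55). COA2, needed for cytochrome oxidase assembly, had 4.08 with DTT and 99.0 untreated in the authors' deposited table (log2 fold change -4.60 ± 0.69). MHT1, homocysteine methyltransferase, had 12.6 with DTT and 219.4 untreated in the authors' deposited table (log2 fold change -4.12 ± 0.63). The others in the authors' deposited table were the mannosyltransferase gene KTR1 (-3.83 ± 0.70), IRC8 (-3.16 ± 0.31), the membrane protein gene YRO2 (-2.84 ± 0.58) and the cell wall gene EGT2 (-2.76 ± 0.41). Below the limit, HXT7, a hexose transporter gene, had 4.88 with DTT and 78.1 untreated in the authors' deposited table (adjusted p = 1.52e-05, DESeq2), a larger decrease than that of KTR1.

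By function, the ribosomal protein genes held the most called sharp clusters. For each list the share of all clusters is the one given above, 16.5% higher and 17.3% lower, and counts in lists of a few clusters are a description only. Of 31 sharp clusters of ribosomal protein genes with a test, 22 were lower with DTT and 0 higher in the authors' deposited table, with a median log2 fold change of -1.68. RPS6A fell by 1.75 ± 0.35 log2 units in the authors' deposited table and RPP2B by 1.69 ± 0.27. The 200 broader clusters of such genes had a median of -1.66 and 160 lower in the authors' deposited table. Of 5 sharp clusters of the respiratory chain and ATP synthase, 3 fell, among them QCR2 of complex III (-1.79 ± 0.41 in the authors' deposited table) and the ATP synthase subunit gene ATP20 (-2.17 ± 0.47), and of 39 broader ones 27 fell and 1 rose. Of 13 clusters of cell wall and secreted proteins, 6 fell and 2 rose in the authors' deposited table, and PIR1, a structural wall protein, was at -2.11 ± 0.40. Of 76 broader clusters of that list, 20 fell and 19 rose in the authors' deposited table. Of 9 clusters of heat shock chaperones, 3 fell and 0 rose in the authors' deposited table, with SSB1, a ribosome-bound Hsp70, at -1.74 ± 0.31, and of 23 broader ones 5 fell and 1 rose. Among 8 clusters of glycolysis and fermentation 2 rose, TDH1 and TDH2 (1.23 ± 0.34 in the authors' deposited table), and FBA1 was at -0.35 ± 0.28, and of 60 broader clusters 6 rose and 1 fell. Iron genes had 3 sharp clusters, of which FET3 (-1.30 ± 0.38) and FRE4 (-2.23 ± 0.59) fell and the metal transporter gene SMF3 (1.48 ± 0.45) rose in the authors' deposited table, and of 24 broader ones 12 rose and 0 fell. Of 5 sharp clusters of sulfur amino acid genes, MET22 rose (1.02 ± 0.34) and MET17 (-1.37 ± 0.28) and MHT1 fell in the authors' deposited table, and of 30 broader ones 1 rose and 16 fell. Of 6 sharp clusters of thiol redox genes 2 rose, TSA2 and the peroxiredoxin gene AHP1 (1.16 ± 0.29), and 1 fell in the authors' deposited table, and of 29 broader ones 10 rose and 3 fell. ER folding had 2 sharp clusters in the authors' deposited table, of which the cluster shared by the disulphide isomerase PDI1 and YCL041C rose by 2.34 ± 0.25. ER-associated degradation also had 2, of which 0 were called in the authors' deposited table, and no sharp cluster belonged to the unfolded protein response regulators. Of the broader clusters, 18 of 27 of ER folding and 8 of 14 of ER-associated degradation rose in the authors' deposited table. Of 10 broader clusters of the unfolded protein response regulators 3 rose, and in each of these lists 0 broader clusters fell.

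Inside coding regions, most called clusters without the cytosine run were higher with DTT and most called clusters with it were lower. Of 84 tested without the run, 21 were higher and 3 lower in the authors' deposited table, with a median log2 fold change of 0.65. Of 74 with the run, 5 (6.76%) were higher and 12 (16.2%) lower in the authors' deposited table, with a median of -0.28. Over all clusters 16.5% were higher and 17.3% lower. The share lower with the run was thus near that of all clusters, and the share higher was below it. The 88 broader coding-region clusters with the run were higher in 6 and lower in 17, and the 502 without it were higher in 109 and lower in 73, in the authors' deposited table. The difference between the kinds was not tested.

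Where a sharp cluster shared its gene with a broader one, their changes with DTT ran together more closely for sharp clusters inside the coding region than for upstream ones, as a description with no test. For 113 sharp clusters inside coding regions, the log2 fold change with DTT in the authors' deposited table rose and fell with that of the gene's strongest broader cluster (Spearman's rho 0.81, Pearson's r 0.71). The sign was the same in 98 (86.7%), and all 21 pairs called at both clusters went the same way. With the cytosine run rho was 0.86 over 66 pairs and without it 0.70 over 47. For 76 upstream pairs rho was 0.18 and r 0.10, the sign was the same in 40 (52.6%), and of 12 pairs called at both clusters 5 were opposite. Among pairs whose sharp cluster had a mean count of at least 50, rho was 0.83 and the sign the same in 33 of 38 (86.8%) inside, and rho was 0.34 and the sign the same in 26 of 42 (61.9%) upstream. These are descriptions across genes, which are not independent replicates, and each pair shares its libraries. The inside clusters had a median of 2.81% of the counts of their broader partner and the upstream ones 43.9%. The broader partners of inside clusters had a median mean count of 1657 and those of upstream clusters 138.3. With the limit of 50 on the sharp cluster these were 1747 and 122.7, and upstream sharp clusters had a median of 360.7% of their partner. Whether the lower counts of the upstream partners account for the lower rho was not tested. In the mutant tables the same measure was weaker, at rho between 0.07 and 0.33 for inside clusters and between -0.23 and 0.02 for upstream ones. With the limit of 50 on the sharp cluster it was between 0.19 and 0.56 inside and between -0.20 and 0.18 upstream. For inside clusters with the run, rho with DTT was 0.47 in snf2Q928K and 0.42 in snf2W935R. Without the run it was -0.19 and -0.14. A few inside clusters departed from their gene. ERP1, of the p24 cargo receptor family, rose by 6.03 ± 0.90 log2 units at a 2 bp cluster inside the coding region (83.8 with DTT, 1.28 untreated in the authors' deposited table), and its upstream cluster rose by 0.79 ± 0.24.

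**Figure D3:**
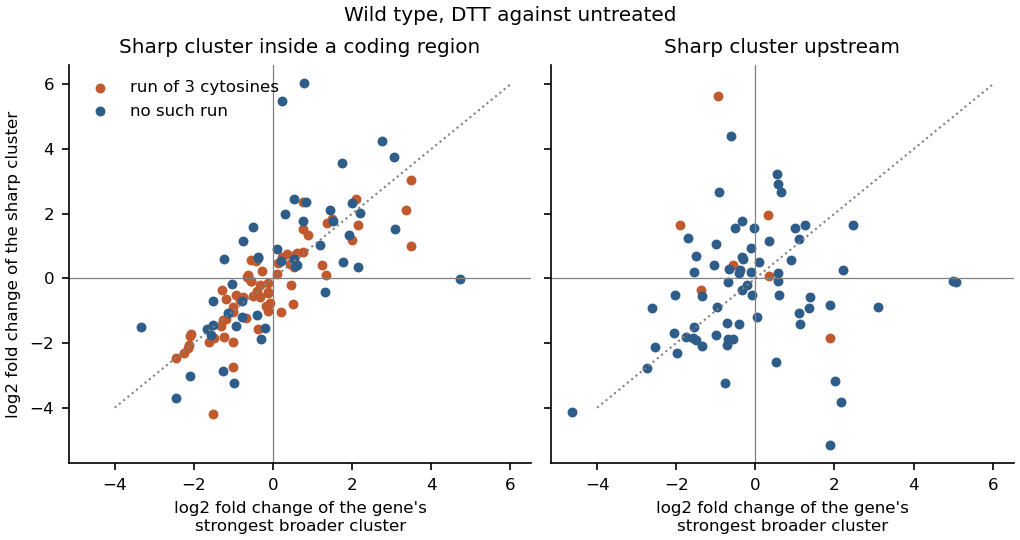
Log2 fold change with DTT in wild type of each sharp cluster (vertical) against that of its gene's strongest broader cluster (horizontal), for 113 sharp clusters inside coding regions (left) and 76 upstream (right), with equality dotted. Inside clusters lie near the line of equality (rho 0.81) and upstream clusters scatter more widely (rho 0.18).

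In 6 genes a sharp and a broader cluster were called in opposite directions. At THI7 the upstream sharp cluster fell while a broader cluster inside the coding region, at chrXII:613004-613026, rose by 1.88 ± 0.48 log2 units in the authors' deposited table (183.7 with DTT, 49.8 untreated). IRC8 had the same arrangement, with its inside cluster at 2.02 ± 0.51 in the authors' deposited table. At KTR1 the sharp cluster lay 199 bp upstream and fell, and the main cluster nearer the gene rose by 2.15 ± 0.23 in the authors' deposited table (8539 with DTT, 1919 untreated). YCR051W showed the reverse, since its sharp cluster 90 bp upstream rose and the main cluster closer to the gene fell by 0.95 ± 0.33 log2 units in the authors' deposited table (494.2 with DTT, 954.9 untreated). At STM1, a ribosome-associated protein gene, the sharp cluster rose by 1.64 ± 0.67 and the main cluster fell by 1.90 ± 0.26 log2 units in the authors' deposited table. At PRY3 the sharp cluster lay inside the coding region and rose by 4.25 ± 1.55 in the authors' deposited table, and an upstream broader cluster fell by 1.64 ± 0.66.

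TATA matches preceded a larger share of the upstream sharp clusters that were called than of those that were not. TATAAA or TATATA on the sense strand, 120 to 30 bases before the cluster (the words may overlap), was present at 77 of 307 upstream sharp clusters (25.1%), 19.6% of broader upstream clusters and 17.9% of all clusters. Counted on both strands the shares were 29.3%, 24.5% and 22.1%. It preceded 14 of 34 upstream sharp clusters higher with DTT (41.2%), 24 of 55 lower (43.6%) and 39 of 218 not called (17.9%). Broader upstream clusters weighted to the same mean counts held it in 24.0% when called and in 17.3% when not. In swi3E815X it preceded 4 of 5 upstream sharp clusters lower with DTT and 5 of 6 lower untreated, against 20 of 35 and 13 of 26 broader upstream clusters lower there. In snf2W935R it preceded 8 of 14 sharp clusters lower with DTT and 10 of 13 lower untreated, against 44 of 94 (46.8%) and 23 of 63 (36.5%) broader ones. In snf2Q928K it preceded 14 of 26 sharp clusters lower with DTT and 15 of 22 lower untreated, against 83 of 230 (36.1%) and 50 of 124 (40.3%) broader ones. Upstream sharp clusters that were higher held it in 5 of 16 with DTT and 5 of 7 untreated in snf2Q928K, in 2 of 6 and 1 of 2 in snf2W935R, and in 1 of 1 with DTT in swi3E815X. Those not called in a mutant comparison held it in 20.5% to 23.9%. The mutant comparisons count many of the same clusters, since 12 sharp clusters were lower in both untreated snf2 comparisons and 15 in both with DTT. Their shares are therefore not independent observations. The broader shares in the mutants were not weighted to mean counts. A match is only these letters in this window, and the difference in shares was not tested.

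Few sharp clusters changed in swi3E815X and more in the snf2 mutants, above all snf2Q928K. In swi3E815X with DTT, 6 sharp clusters (1.22%) were called in the authors' deposited table, against 1.39% of all clusters, with 1 higher (0.212% of all clusters) and 5 lower (1.17% of all clusters). In untreated swi3E815X, 8 (1.64%) were called in the authors' deposited table, against 1.81% of all clusters, with 1 higher (0.463% of all) and 7 lower (1.35% of all). In snf2W935R with DTT, 26 (5.30%) were called in the authors' deposited table, against 5.37% of all clusters, with 10 higher (2.54% of all) and 16 lower (2.83% of all). In untreated snf2W935R, 17 (3.47%) were called in the authors' deposited table, against 2.74% of all clusters, with 4 higher (0.945% of all) and 13 lower (1.79% of all). In snf2Q928K with DTT, 61 (12.4%) were called in the authors' deposited table, against 14.5% of all clusters, with 27 higher (7.34% of all) and 34 lower (7.18% of all). In untreated snf2Q928K, 37 (7.55%) were called in the authors' deposited table, against 6.56% of all clusters, with 13 higher (2.82% of all) and 24 lower (3.74% of all). Matched broader clusters were called in 0.913% and 1.22% for swi3E815X with DTT and untreated, 3.49% and 1.81% for snf2W935R, and 10.1% and 4.42% for snf2Q928K. Over the whole set, the sharp share was the higher one in all 7 comparisons, by 0.309 to 3.94 percentage points. The matched clusters were weighted to this whole set, not to its parts by position. The matched value lay below the exact interval of the sharp share for untreated snf2W935R (2.03 to 5.50%) and untreated snf2Q928K (5.37 to 10.3%), and at its lower bound for snf2W935R with DTT (3.49 to 7.66%). That interval treats clusters as independent, which they are not, and the difference was not tested. Inside coding regions, sharp clusters were called in 0 of 160 for swi3E815X with DTT and 1 of 159 untreated. For snf2W935R this was 1 of 160 under each treatment, and for snf2Q928K 16 of 160 with DTT and 6 untreated. Their share was below the matched value in each of the 6 mutant comparisons, and at 25.9% it was above it in wild type. Upstream, 20 and 15 of 307 were called for snf2W935R with DTT and untreated, 42 and 29 for snf2Q928K, and 6 each for swi3E815X. The 2 snf2 mutants share their wild-type libraries, so their values are set side by side and not taken as independent of each other.

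**Figure D4:**
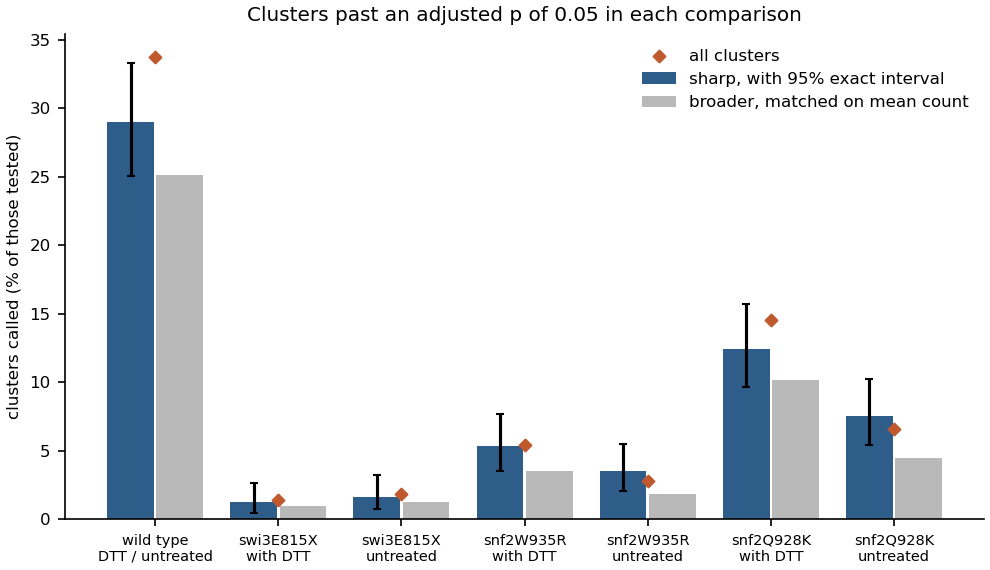
Percent of tested clusters past an adjusted p of 0.05 in each of the 7 comparisons, for sharp clusters (blue, with exact 95% intervals), broader clusters of matched mean count (grey) and all clusters (diamonds). The sharp bar is above the matched bar in each comparison, from 29.0% in wild type with DTT to 1.22% in swi3E815X with DTT.

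Across comparisons 189 sharp clusters were called at least once, 101 of them only in the wild-type comparison and 88 in a mutant one, and 13 were called in 4 or more. The same counts were not made over all clusters, so they do not set the sharp clusters apart. Of these 13, 12 were lower in each mutant comparison in which they were called, and the direction for YMR194C-A was the opposite. The glycoprotein gene YGP1, induced on nutrient limitation and coding for a secreted protein, was the only one called in all 7. Its cluster at chrXIV:336491-336496 had 157.8 normalized counts in swi3E815X and 842.1 in wild type with DTT, and 117.8 in swi3E815X and 1435 in wild type untreated, in the authors' deposited table. In snf2W935R it had 127.9 against 841.2 in wild type with DTT, and 83.4 against 1234 in wild type untreated, in the authors' deposited table. In snf2Q928K it had 213.1 against 930.2 in wild type with DTT, and 128.5 against 1420 in wild type untreated, in the authors' deposited table. The log2 fold changes were between -3.89 ± 0.39 and -2.13 ± 0.35 in the 6 mutant comparisons of the authors' deposited tables, and the change with DTT in wild type was -0.96 ± 0.24.

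PHO5 and YRO2 were lower in all 3 untreated mutants. PHO5 had 6.79 in untreated swi3E815X and 240.3 in its wild type (log2 fold change -5.14 ± 0.69, adjusted p = 9.21e-11, DESeq2, in the authors' deposited table). It stood at -2.86 ± 0.67 in untreated snf2W935R and -2.99 ± 0.67 in untreated snf2Q928K in the authors' deposited table. With DTT the wild-type level was itself between 3.22 and 11.05, and no mutant was called in the authors' deposited table. YRO2 was at -5.42 ± 0.97 in swi3E815X, -5.10 ± 0.68 in snf2W935R and -5.60 ± 0.68 in snf2Q928K untreated, in the authors' deposited table. FRE4, a ferric reductase of iron uptake, was likewise lower in the 3 untreated mutants, at -4.38 ± 0.91 in swi3E815X, -2.78 ± 0.67 in snf2W935R and -4.34 ± 0.68 in snf2Q928K in the authors' deposited table. The 3 promoters each hold a TATA match, as printed above.

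FET3, GAD1, FLC1 and YCR051W were lower in mutants with DTT, and FET3 and FLC1 also in untreated snf2 mutants. FET3, the multicopper ferroxidase of iron uptake, had 572.4 in snf2Q928K and 3607 in wild type with DTT (log2 fold change -2.66 ± 0.41, adjusted p = 5.11e-09, DESeq2, in the authors' deposited table), and with DTT it was also called in swi3E815X (-1.35 ± 0.34) and snf2W935R (-2.46 ± 0.35). Untreated, FET3 was at -1.35 ± 0.41 in snf2W935R and -1.96 ± 0.40 in snf2Q928K, both called in the authors' deposited table. FLC1, coding for an ER membrane protein of FAD transport, had 886.5 in snf2Q928K and 5938 in wild type with DTT, or -2.74 ± 0.26 as a log2 ratio in the authors' deposited table, while in wild type it rose with DTT by 1.56 ± 0.23. FLC1 was also lower with DTT in snf2W935R (-2.13 ± 0.34) and untreated in snf2W935R (-1.93 ± 0.32) and snf2Q928K (-1.89 ± 0.31) in the authors' deposited table. GAD1, glutamate decarboxylase, rose in wild type with DTT by 2.19 ± 0.50 and was lower with DTT in all 3 mutants in the authors' deposited table (swi3E815X -1.69 ± 0.47, snf2W935R -2.46 ± 0.62 and snf2Q928K -3.83 ± 0.65). YCR051W, described above for wild type, was lower in the 3 mutants with DTT, at -2.85 ± 0.61 in swi3E815X, -3.66 ± 1.09 in snf2W935R and -3.68 ± 0.82 in snf2Q928K in the authors' deposited table. By the inferred arms, the rises in wild type at FLC1, GAD1 and YCR051W use the same wild-type DTT libraries as the mutant comparisons. The rises are therefore not independent of the lower mutant values. The disaggregase gene HSP104 was lower in both snf2 mutants under both treatments, between -1.54 ± 0.38 and -1.27 ± 0.29 in the authors' deposited table. PST1, a cell wall protein gene, fell in snf2Q928K with DTT (-1.92 ± 0.28) and untreated (-2.20 ± 0.33) and in untreated snf2W935R (-1.53 ± 0.33) in the authors' deposited table. MTD1 of folate metabolism was lower in the same 3 snf2 comparisons, from -2.53 ± 0.45 to -1.56 ± 0.56 in the authors' deposited table. At CCT6, a chaperonin subunit gene, the called cluster lay 258.5 bp upstream and held 2.38% of the gene's counts, and it was lower in both swi3E815X tables and with DTT in both snf2 mutants, from -2.49 ± 0.59 to -2.01 ± 0.60 in the authors' deposited table. YMR194C-A, which has no coding region in the reference, was at least 40.2-fold higher in snf2Q928K and at least 21.3-fold higher in snf2W935R with DTT by the authors' deposited table, the wild-type arm being under the floor of 3 counts per arm.

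**Figure D5:**
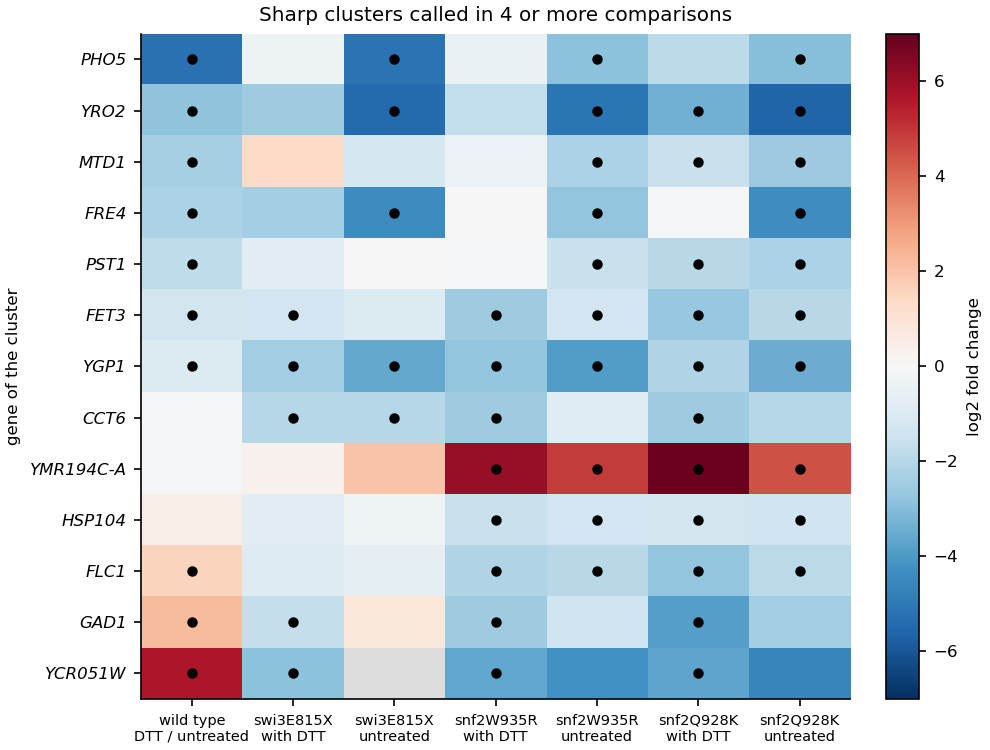
Log2 fold change (colour) of the 13 sharp clusters called in 4 or more comparisons, with 1 row per gene and 1 column per comparison, black dots where the adjusted p was under 0.05 and grey where no value was given. YGP1 is called in all 7 columns, and all but YMR194C-A are lower wherever a mutant is called.

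Other sharp clusters stood at the extremes of single mutant comparisons. With DTT, KTR2, another mannosyltransferase gene, was at least 29.0-fold lower in snf2W935R by the authors' deposited table, and it was at least 35.9-fold higher with DTT in wild type. YIL100W had the same pair of directions, at least 23.3-fold lower in snf2W935R with DTT and at least 29.4-fold higher with DTT in wild type, by the authors' deposited table. These pairs of directions are not independent, since the wild-type DTT libraries of the snf2 comparisons are, by inference, also part of the wild-type comparison. TSA2 had 40.9 in snf2W935R and 391.4 in wild type with DTT, and 108.6 in snf2Q928K and 432.8 in wild type with DTT, in the authors' deposited table (log2 fold change -3.26 ± 0.52 and -1.99 ± 0.38). YPL025C was at least 62.6-fold higher in snf2Q928K with DTT by the authors' deposited table. Untreated, the vitamin B6 gene SNZ1 was at least 41.7-fold higher in snf2Q928K, and ARG3 of arginine synthesis was higher in snf2W935R (130.3 against 20.2 in wild type) and snf2Q928K (119.5 against 23.2 in wild type) in the authors' deposited table. FBA1, the strongest sharp cluster, was higher with DTT in snf2W935R (1.19 ± 0.30) and snf2Q928K (1.26 ± 0.24) in the authors' deposited table. Of the ribosomal protein clusters, 7 of 32 were higher and 0 lower in snf2Q928K with DTT, and 3 of 32 were higher in snf2W935R with DTT, in the authors' deposited table. Of 200 broader ones, 68 were higher and 2 lower in snf2Q928K with DTT, and 23 were higher and 0 lower in snf2W935R with DTT. Over all clusters, 7.34% were higher in snf2Q928K and 2.54% in snf2W935R with DTT.

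The effect of a mutant differed between DTT and untreated cells at few sharp clusters. The difference of the log2 fold changes passed an adjusted p under 0.05 at 4 sharp clusters in snf2Q928K and 2 in snf2W935R, where 1.41% and 0.869% of all clusters did. In swi3E815X it passed at 0, where 0.0386% of all clusters did. An unadjusted p under 0.05 was found at 21 sharp clusters in swi3E815X (4.28%, against 3.82% of all clusters). It was found at 53 in snf2W935R (10.8%, against 10.3% of all) and 39 in snf2Q928K (7.94%, against 10.4% of all). The ribosomal protein gene RPL39 differed in both snf2 mutants. With DTT it had 7192 in snf2Q928K and 2683 in wild type (log2 fold change 1.42 ± 0.23), against -0.11 ± 0.34 untreated, in the authors' deposited table. FRE4 was at -0.16 ± 0.94 with DTT and -4.34 ± 0.68 untreated in snf2Q928K in the authors' deposited table. TMA10, a ribosome-associated stress protein gene, was at -3.32 ± 0.33 with DTT and -0.89 ± 0.53 untreated in snf2Q928K in the authors' deposited table. IDP1, the mitochondrial isocitrate dehydrogenase, was at -1.06 ± 0.41 with DTT and 1.21 ± 0.41 untreated in snf2W935R in the authors' deposited table, and neither value was called by itself.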

How the data were processed

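The analysis used 7 tables deposited by the authors, of which 1 compares wild type with DTT and untreated and 6 compare a mutant with wild type. They hold no values per library, so depth, SD and n per library are unknown. Per the submitters' processing notes, reads were handled with cutadapt, HISAT2 and DESeq2 on sacCer3/R64; the sources used here name no versions. Lines are start clusters that, per the file headers, carry a mean normalized count (a size-factor signal computed by the authors), a log2 fold change with its SE, a Wald statistic (a score deposited by the authors) and p-values deposited by the authors. No fit could be remade, and errors are the deposited SEs. Normalized counts of each arm were computed from the mean and fold change of the table, assuming arms of equal size. Arms hold 4 libraries in the wild-type table, as inferred from the arm means, and 2 in the mutant tables. The snf2 tables share their wild-type arm, and the swi3 tables use another. With 4 libraries per arm, the wild-type table includes the wild-type libraries of the mutant tables, so its changes are not independent of theirs. A fold against an arm under 3 counts is given as a bound on that floor.

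Clusters were joined by number, and 5195 entered. Called means a deposited adjusted p under 0.05. Broader clusters were weighted to the sharp ones over 10 bins of mean count. The DTT minus untreated difference used the root of the summed squared SEs and a two-sided normal p, Benjamini-Hochberg adjusted over all clusters, and was tested on simulated data. The simulation drew normal values with the deposited SEs, so it checks the computation only. It cannot show whether the normal p holds with 2 libraries per arm or low counts. Members, lists and named genes (extremes, highest counts, calls in 4 or more tables, opposite pairs, list examples) were chosen with earlier results of these data known. Replicates are cultures collected on separate days, per the labels, and separate clones are not mentioned. Position and sequence came from the RefSeq R64 reference, in which 472 sharp clusters matched a gene. Scripts ran in python 3.11.15 with numpy 2.4.6, pandas 2.3.3, scipy 1.17.1 and matplotlib 3.10.9. Intervals are exact (Clopper-Pearson, 95%) and cover counting only.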

Additional observations from a re-analysis of the deposited data

Results flagged for a closer look

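The effect of a mutant differed between DTT-treated and untreated cells at 6 combinations of sharp cluster and mutant, by the test of the difference itself (two-sided normal p, Benjamini-Hochberg adjusted over all clusters), and each was past the threshold for that reason. In snf2W935R the DTT minus untreated difference was -2.27 ± 0.58 log2 units at IDP1 (adjusted p = 0.0221) and 1.72 ± 0.46 at RPL39 (adjusted p = 0.0271). In snf2Q928K it was 1.54 ± 0.42 at RPL39 (adjusted p = 0.0251), -2.43 ± 0.63 at TMA10 (adjusted p = 0.0157), 4.18 ± 1.16 at FRE4 (adjusted p = 0.0302) and -7.79 ± 2.12 at SNZ1 (adjusted p = 0.0265). The SNZ1 value rests on a fitted fold against a wild-type arm under the floor and is no measure of size, since the untreated ratio is only known to be at least 41.7-fold by the authors' deposited table. FRE4 had 32.4 normalized counts in snf2Q928K and 36.1 in wild type with DTT, against 13.7 in snf2Q928K and 276.9 in wild type untreated, in the authors' deposited table. The snf2 mutants share their wild-type arm, so the 2 RPL39 values are not independent. How many libraries show each direction is unknown.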

How the results depend on the processing

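No paired analysis was possible because the deposited tables hold no values per library, and for the same reason replicates could not be left out and no other normalization tried. Of 105 alternative shares and differences, 97 stayed within the interval of the reported value. With an adjusted p under 0.01 the share of sharp clusters called was 19.4% in wild type, 3.26% and 1.84% in snf2W935R with DTT and untreated, and 7.13% and 4.49% in snf2Q928K. With a mean normalized count of at least 50 it was 38.3% in wild type, 3.24% in untreated swi3E815X and 16.1% in snf2Q928K with DTT. The number of sharp clusters whose effect differed between DTT and untreated cells was 0 for snf2W935R at a width of at most 8 bp, 5 at a width of at most 20 bp, 0 at an adjusted p under 0.01, 7 under 0.1 and 4 with at least 50 counts. For snf2Q928K it was 1 at 8 bp, 8 at 20 bp and 0 at an adjusted p under 0.01. Of 157 calls of named clusters, 117 passed 0.01 and 40 did not. The sharp minus matched difference stayed above 0 under each alternative for wild type, the snf2 mutants and untreated swi3E815X, and for swi3E815X with DTT it ran from -0.0545 to 1.05 percentage points. Leaving out clusters with the cytosine run, an alternative chosen after seeing the data, gave 29.7% called in wild type and 14.6% in snf2Q928K with DTT. Low counts limit many of these clusters, since 243 of 491 had a mean under 50.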
